A study of Rattus norvegicus with 12 samples.

Results

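Astrocytes are the star-shaped support cells of the brain, and the 6 genes described here are among those most used to recognise them. Their values were read in all 12 libraries of a study of Sprague Dawley rats, all adult males of 15 weeks. The 6 rows were chosen by identifier, with earlier results of these data known. They were Gfap (ENSRNOG00000002919), Aqp4 (ENSRNOG00000016043), Slc1a2 (ENSRNOG00000005479), Slc1a3 (ENSRNOG00000016163), S100b (ENSRNOG00000001295) and Apoe (ENSRNOG00000018454). All 6 were present among the 25908 genes of the deposited table. RNA from brain or testis was sequenced from wild-type rats and from rats carrying human DNMT3A (hDNMT3A), a gene for an enzyme that adds methyl groups to cytosines followed by guanine. This made 4 groups of 3 libraries: wild-type brain, hDNMT3A brain, wild-type testis and hDNMT3A testis. The sources used here do not give the brain region taken, the promoter of the transgene, the number of transgenic lines, or whether libraries came from separate animals. The p-values thus reflect only how far these libraries scatter, and that scatter could be technical.

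Each of the 6 proteins serves a known task of the astrocyte. Gfap forms the intermediate filaments of its cytoskeleton and is widely used as a sign of astrocyte reactivity. Aqp4 is the water channel of the end-feet that wrap blood vessels. Slc1a2 and Slc1a3 are the transporters, also called GLT-1 and GLAST, that clear glutamate from the synaptic cleft. S100b is a small calcium-binding protein that astrocytes also release, and Apoe is the apolipoprotein that carries cholesterol and other lipids between cells of the brain. Apoe is also made outside the brain by liver, macrophages and steroid-producing cells, while Gfap and Aqp4 are the members most often read as markers of glia.

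The start regions of the genes are shown because the transgene encodes an enzyme that acts on CG pairs. Methylation itself was not measured. Each window holds 250 bases before and 50 bases after the RefSeq start in build GRCr8, which is not the build named for the expression table, and CG pairs are in capitals. The windows of the gene whose level lay highest in hDNMT3A relative to wild-type brain (Gfap, chr10:88361612-88361911, minus strand) and of the 3 genes with the largest differences in the other direction are printed, chosen after their values were seen (Slc1a2, chr3:109459859-109460158, plus strand, Slc1a3, chr2:59557759-59558058, minus strand, and S100b, chr20:12381032-12381331, minus strand).
Gfap: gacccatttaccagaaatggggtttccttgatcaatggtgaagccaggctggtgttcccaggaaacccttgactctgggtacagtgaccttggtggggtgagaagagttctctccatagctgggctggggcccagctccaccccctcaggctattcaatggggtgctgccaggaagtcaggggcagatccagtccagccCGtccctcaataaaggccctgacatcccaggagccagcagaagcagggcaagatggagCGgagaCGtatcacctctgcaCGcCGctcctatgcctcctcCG
Slc1a2: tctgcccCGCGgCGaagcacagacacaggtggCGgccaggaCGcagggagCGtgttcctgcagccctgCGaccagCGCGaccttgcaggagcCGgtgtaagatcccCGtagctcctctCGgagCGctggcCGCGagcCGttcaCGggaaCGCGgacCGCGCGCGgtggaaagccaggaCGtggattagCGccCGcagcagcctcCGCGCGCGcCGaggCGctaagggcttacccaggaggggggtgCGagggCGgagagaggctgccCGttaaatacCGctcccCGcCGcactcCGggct
Slc1a3: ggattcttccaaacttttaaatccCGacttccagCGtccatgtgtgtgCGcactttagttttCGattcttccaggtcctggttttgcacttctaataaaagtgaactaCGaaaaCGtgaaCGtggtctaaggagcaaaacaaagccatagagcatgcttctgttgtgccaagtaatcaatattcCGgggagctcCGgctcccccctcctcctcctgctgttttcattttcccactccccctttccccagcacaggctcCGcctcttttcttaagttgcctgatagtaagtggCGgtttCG
S100b: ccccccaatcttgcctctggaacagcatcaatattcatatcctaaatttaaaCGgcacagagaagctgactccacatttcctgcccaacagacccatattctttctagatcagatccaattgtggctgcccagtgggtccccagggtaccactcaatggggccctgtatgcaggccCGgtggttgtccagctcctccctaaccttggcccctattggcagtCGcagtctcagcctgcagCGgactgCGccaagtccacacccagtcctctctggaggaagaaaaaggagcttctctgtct

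These start regions differed widely in their content of CG. The first Slc1a2 window held 39 CG pairs, more than 96.2% of the 33469 windows of the table, where the median was 7. Slc1a3 held 12, Gfap 6 and S100b 5. A further Slc1a2 start, also listed in RefSeq, held 2. The 3 Apoe windows held 3, 10 and 12 CG pairs and the 2 Aqp4 windows 5 and 4. The genes with lower values in hDNMT3A brain thus included both a CG-rich start and CG-poor ones, and no relation was tested. On both strands, 3 motifs were absent from all 12 windows of the 6 genes: TTCNNNGAA, bound by STAT factors and present in 8.87% of all windows, TGANTCA, bound by AP-1 and present in 7.33%, and the full palindrome bound by NFI, present in 0.0418%. The E-box CANNTG, present in 72.1% of all windows, was found in at least 1 window of each gene except Gfap. The absence of a motif says only that these letters are not in this window.

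The library totals behind the FPKM values (fragments scaled to gene length and to library size) were 14004547 to 16112149 reads. They were worked out from the smallest steps in the FPKM columns. About 99.99% of each total lay in the listed genes, so these are reads assigned to genes, and the sequenced depth is not known. Wild-type brain replicate 2 stood apart: 203 abundant testis-restricted genes (100 FPKM or more on average in testis, with a brain median no higher than 0.5 FPKM) stood there at 1.59% of what testis holds, against 0.0511% to 0.33% in the other brain libraries. Results in brain are therefore also given without it. Markers of other cell types and further astrocyte genes were not analysed here, because identifiers other than those of the 6 genes were not paired with symbols.

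All 6 genes were abundant in brain. Apoe was the most abundant, at 1582 ± 113 FPKM (SD, n = 6), and ranked between 12 and 15 among all genes in each brain library. S100b followed at 835 ± 89.7 FPKM (SD, n = 6), at rank 27 to 43. Each Apoe value lay above each S100b value, and each S100b value above each value of the genes that follow. Slc1a2 stood at 429 ± 85.7 FPKM (SD, n = 6), Slc1a3 at 267 ± 31.4, Gfap at 236 ± 25.5 and Aqp4 at 142 ± 9.51. Slc1a2 exceeded Slc1a3 in 6 of 6 brain libraries, although their ranges overlapped across libraries. Slc1a3 and Gfap could not be ordered over all brain libraries, since Slc1a3 was higher in 4 of 6. Aqp4 was the lowest of the genes, below each Gfap value, and still ranked between 367 and 500. Together the 6 genes took 0.622% to 0.747% of the reads assigned to genes in a brain library and 0.022% to 0.0331% of those in a testis library.

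The length of gene implied by the FPKM steps bears on these levels. It was 3661 bp for Gfap, 5419 bp for Aqp4, 3982 bp for Slc1a3, 1484 bp for S100b and 1555 bp for Apoe, but 882 bp for Slc1a2. The coding region of full-length Slc1a2 mRNA is longer than that, so the length used for Slc1a2 covers only part of that mRNA. Which part of the transcript the counted reads came from is not known. The level of Slc1a2 relative to the other genes carries that limit.

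The genotypes were first compared in brain. None of the 6 genes was called at an adjusted p under 0.05 (limma with Benjamini-Hochberg adjustment over 13827 genes), where 0.116% of all genes were called. At an unadjusted limma p under 0.05 stood 3 of the 6, all lower in hDNMT3A brain, against 4.44% of all genes. That count rested on wild-type replicate 1: without it, Slc1a3 was the 1 gene lower at that threshold and Gfap was higher, while Slc1a2 and S100b missed it. With all 12 libraries in 1 limma fit, S100b also missed it. With voom on the recovered reads, 0 of the 6 were called. In 4 of the 6, Slc1a2, Slc1a3, S100b and Aqp4, each hDNMT3A value lay below each wild-type value, a pattern seen in 7.2% of all genes tested. The 6 genes were chosen with earlier results of these data known, and some of them vary together across the brain libraries. These counts are therefore no test of the 6 genes as a set. For a single gene, 3 libraries against 3 allow no exact two-sided permutation p below 0.1, which is the value these 4 genes reached. The median difference of the 6 genes was -0.20 on the log2 scale (hDNMT3A minus wild type), against 0.00 over all genes. In bulk tissue, fewer astrocytes and less RNA per astrocyte cannot be told apart.

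Slc1a3, one of the glutamate transporters, had the clearest gap. It stood at 298, 280 and 307 FPKM in wild-type brain replicates 1 to 3 and at 243, 241 and 236 FPKM in hDNMT3A brain replicates 1 to 3. The hDNMT3A values lay close together and well under the lowest wild-type value. The means were 295 ± 14 and 240 ± 3.69 FPKM (SD, n = 3 each), a change of -18.6%. The difference was -0.30 on the log2 scale (SE 0.06, 95% interval -0.44 to -0.15), with an adjusted p of 0.277 by limma. It ranked 91 of 13827 genes by p, and 8.27% of genes had a lower difference.

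Slc1a2, the other transporter, stood at 526, 508 and 441 FPKM in wild-type brain and at 423, 291 and 388 FPKM in hDNMT3A brain. The groups did not overlap, but the standard error of their difference was the largest of the 6 genes, and hDNMT3A replicate 2 was the low value. The means were 492 ± 45.1 and 367 ± 68.4 FPKM (SD, n = 3 each), a change of -25.3%. The log2 difference was -0.43 (SE 0.14, 95% interval -0.77 to -0.10, adjusted p = 0.492 by limma). Without hDNMT3A brain replicate 2 it was -0.28.

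S100b, the calcium-binding protein, stood at 933, 842 and 948 FPKM in wild-type brain and at 794, 738 and 753 FPKM in hDNMT3A brain. The groups were apart, with wild-type replicate 2 nearest to the hDNMT3A libraries. The means were 908 ± 57.6 and 762 ± 28.8 FPKM (SD, n = 3 each), a change of -16.1%. The log2 difference was -0.25 (SE 0.08, 95% interval -0.43 to -0.07, adjusted p = 0.45 by limma).

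Aqp4, the water channel, stood at 143, 148 and 156 FPKM in wild-type brain and at 141, 136 and 129 FPKM in hDNMT3A brain. The groups were separated by a narrow margin, from 141 to 143 FPKM. The log2 difference was -0.14 (SE 0.07, 95% interval -0.29 to 0.01, adjusted p = 0.686 by limma).

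Gfap, the filament protein, went the other way. It stood at 251, 202 and 209 FPKM in wild-type brain and at 264, 234 and 255 FPKM in hDNMT3A brain. Wild-type replicate 1 lay among the hDNMT3A values, so the groups overlapped. The log2 difference was 0.19 (SE 0.10, 95% interval -0.04 to 0.42, adjusted p = 0.731 by limma), and it ran from 0.13 without wild-type replicate 2 to 0.28 without wild-type replicate 1.

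Apoe had the smallest difference. It stood at 1762, 1478 and 1634 FPKM in wild-type brain and at 1500, 1488 and 1631 FPKM in hDNMT3A brain, with the lowest value of all in wild-type replicate 2. The log2 difference was -0.07 (SE 0.09, 95% interval -0.29 to 0.14, adjusted p = 0.925 by limma), and it was -0.01 without wild-type replicate 1. That interval leaves room for a change of the size seen in S100b.

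**Figure D1:**
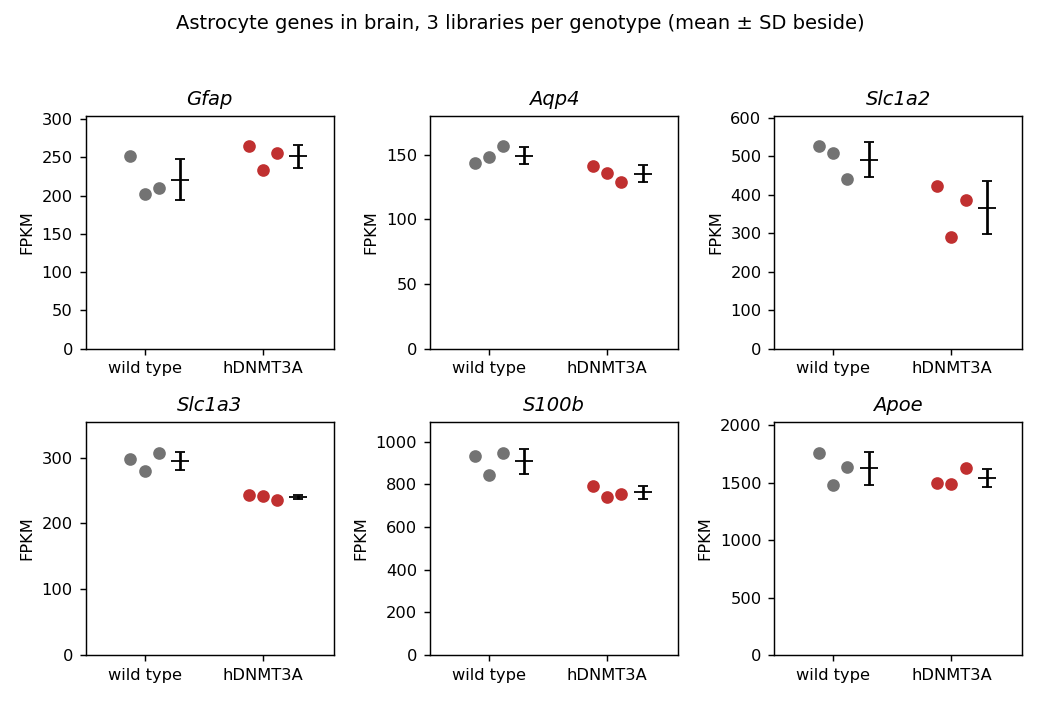
FPKM of the 6 genes in brain (vertical axes, from 0), where grey points are wild-type and red points hDNMT3A libraries, and the bar next to each trio gives its mean ± SD. The hDNMT3A points of Aqp4, Slc1a2, Slc1a3 and S100b lie below all wild-type points, while those of Gfap and Apoe overlap with wild type.

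Wild-type brain replicate 2 was the library where testis-restricted genes stood highest, and the source of their reads was not tested. Without it, the direction of each gene was the same. The log2 differences were then -0.33 for Slc1a3, -0.41 for Slc1a2, -0.30 for S100b, -0.15 for Aqp4, -0.14 for Apoe and 0.13 for Gfap. Relative to its size that of Apoe moved most.

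Ratios between the genes within a library do not depend on how the libraries were scaled, and they are given as a description with no test. The ratio of Gfap to Slc1a3 was 0.845, 0.724 and 0.681 in wild-type brain and 1.09, 0.971 and 1.08 in hDNMT3A brain, with means of 0.75 ± 0.0849 and 1.05 ± 0.0656 (SD, n = 3 each). The filament gene was thus below the transporter in each wild-type library and close to it or above it in each hDNMT3A library. The ratio of Gfap to S100b was 0.27, 0.241 and 0.221 in wild type and 0.333, 0.317 and 0.339 in hDNMT3A brain, again with no overlap. The ratio of Gfap to Slc1a2 went from 0.451 ± 0.0451 to 0.696 ± 0.0956 (SD, n = 3 each). The ratio of Gfap to Apoe was 0.143, 0.137 and 0.128 in wild type and 0.176, 0.157 and 0.157 in hDNMT3A brain, apart by a narrower margin. The ratio of Gfap to Aqp4 was 1.76, 1.37 and 1.34 in wild type and 1.87, 1.72 and 1.99 in hDNMT3A brain, and these groups overlapped. The ratios with Gfap share that gene, the only member with a higher mean in hDNMT3A brain. They thus restate the differences of the single genes and are not separate results. How often ratios between other pairs of genes have groups apart was not computed. Of all 15 ratios between pairs of the genes, 7 had groups apart and 8 overlapped. Among the latter was that of Slc1a3 to S100b, singled out after its values were seen, which was 0.319, 0.333 and 0.324 in wild type and 0.306, 0.327 and 0.313 in hDNMT3A brain.

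**Figure D2:**
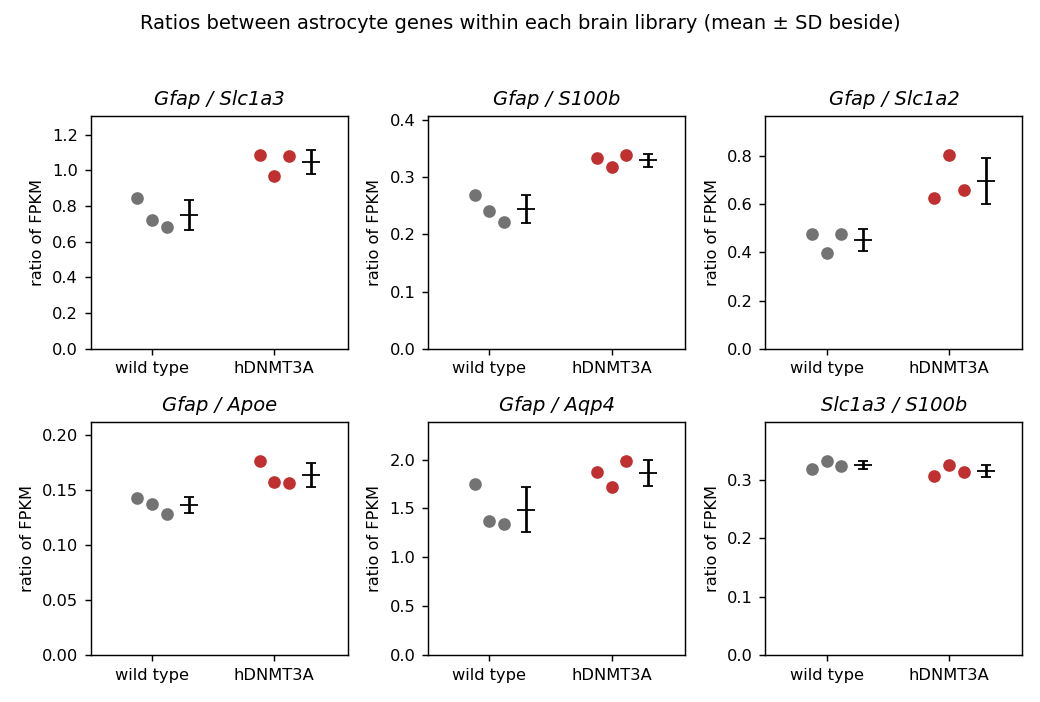
Ratios of FPKM between pairs of the genes within each brain library (vertical axes, from 0), where grey points are wild-type and red points hDNMT3A libraries, and the bar next to each trio gives its mean ± SD. Of the 5 ratios with Gfap, 4 lie higher in each hDNMT3A library than in any wild-type one and that to Aqp4 overlaps. These 5 share Gfap and are not separate results. The ratio of Slc1a3 to S100b stays between 0.306 and 0.333.

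The brain libraries were also ordered by the mean of the 6 genes' z-scores. It was highest in wild-type replicates 1 (0.9) and 3 (0.594) and lowest in hDNMT3A replicate 2 (-0.864), with wild-type replicate 2 at -0.0437, close to hDNMT3A replicate 1 at -0.155. The 6 genes did not all move together. With the genotypes pooled, Gfap had a Pearson r over the brain libraries of -0.68 with Aqp4, -0.57 with Slc1a3 and -0.38 with S100b. It was -0.19 with Slc1a2 and 0.26 with Apoe. These pooled values include the genotype difference. With the mean of each genotype taken out, r was still negative with Aqp4 (-0.353). It was then positive with Slc1a3 (0.273), S100b (0.603), Slc1a2 (0.63) and Apoe (0.759). Over the pooled libraries the mean z-score is thus not a profile that all 6 share. Of 7130 other genes with a brain mean of at least 10 FPKM, the profiles most like this mean over the 6 libraries were those of ENSRNOG00000016177 (Pearson r = 0.983) and ENSRNOG00000007610 (r = 0.981). These genes are not paired with a symbol, and the values share 6 libraries and their depth, so the likeness is only a description. An r of at least 0.9 was reached by 58 of the 7130 genes (0.813%). ENSRNOG00000016177 stood at 31.9 FPKM in wild-type and 26.1 FPKM in hDNMT3A brain, against 1.19 and 1.64 FPKM in testis. ENSRNOG00000007610 stood at 12.3 and 11.3 FPKM in brain and 8.74 and 6.31 FPKM in testis.

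Brain and testis were then compared within each genotype. Gfap and Aqp4 reached the mean of 1 FPKM needed for the test through brain alone, so they had to differ, and their tissue differences are given as read counts without a test. The other 4 genes, Apoe, S100b, Slc1a2 and Slc1a3, were called higher in brain in both genotypes (limma, adjusted p from 3.27e-08 to 1.24e-07 in wild type and from 3.33e-09 to 6.37e-08 in hDNMT3A). Among all genes tested, 48.2% were called higher in brain in wild type and 47.6% in hDNMT3A. Their log2 differences ran from 3.62 to 6.69 in wild type and from 3.29 to 6.53 in hDNMT3A rats, against a median of 0.23 and 0.21 over all genes. In each genotype the brain and testis values of each gene were far apart.

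Aqp4 and Gfap were close to absent from testis. Aqp4 had 7, 0 and 8 reads in the wild-type testis libraries and 5, 4 and 2 in the hDNMT3A ones, against 10572 to 12877 in a brain library. Scaled to depth, its reads were 2465-fold higher in brain in wild type (95% counting interval 1494 to 4405) and 3068-fold higher in hDNMT3A rats (1714 to 6146). The library at 0 allows up to 3 reads, or 0.038 FPKM. Gfap had 21, 21 and 17 reads in wild-type and 10, 24 and 19 in hDNMT3A testis, against at least 10381 in brain. Its reads were 629-fold (487 to 826) and 798-fold (610 to 1066) higher in brain. Counting intervals cover counting error only.

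S100b and the transporters were lower in testis but clearly counted there. S100b stood at 9.26, 8.41 and 7.22 FPKM in wild-type and at 5.54, 9.09 and 9.12 FPKM in hDNMT3A testis, and its brain level was 109-fold and 96.2-fold higher. Slc1a3 stood at 3.5, 4.41 and 2.96 FPKM in wild-type and at 3.61, 3.18 and 4.46 FPKM in hDNMT3A testis, with a brain level 81.4-fold and 64-fold higher. Slc1a2 stood at 14.5, 16.9 and 12.4 FPKM in wild-type and at 17, 14.8 and 15 FPKM in hDNMT3A testis, with a brain level 33.7-fold and 23.5-fold higher. In FPKM the order of the transporters and S100b in testis was thus not that of brain. Slc1a2 exceeded S100b in 6 of 6 testis libraries, with no overlap, while S100b exceeded Slc1a2 in 6 of 6 brain libraries. The order in testis rests on the length of 882 bp for Slc1a2, against 1484 bp for S100b. In reads per testis library, Slc1a2 had 174 to 226 and S100b 124 to 218, and which was higher varied between libraries.

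Apoe was abundant in both tissues. It stood at 139, 137 and 119 FPKM in wild-type and at 134, 157 and 184 FPKM in hDNMT3A testis, where it ranked between 526 and 901 among all genes. Its brain level was 12.3-fold higher in wild type and 9.74-fold higher in hDNMT3A rats, the smallest tissue difference of the 6 genes. The log2 differences were 3.62 (SE 0.09) and 3.29 (SE 0.12).

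**Figure D3:**
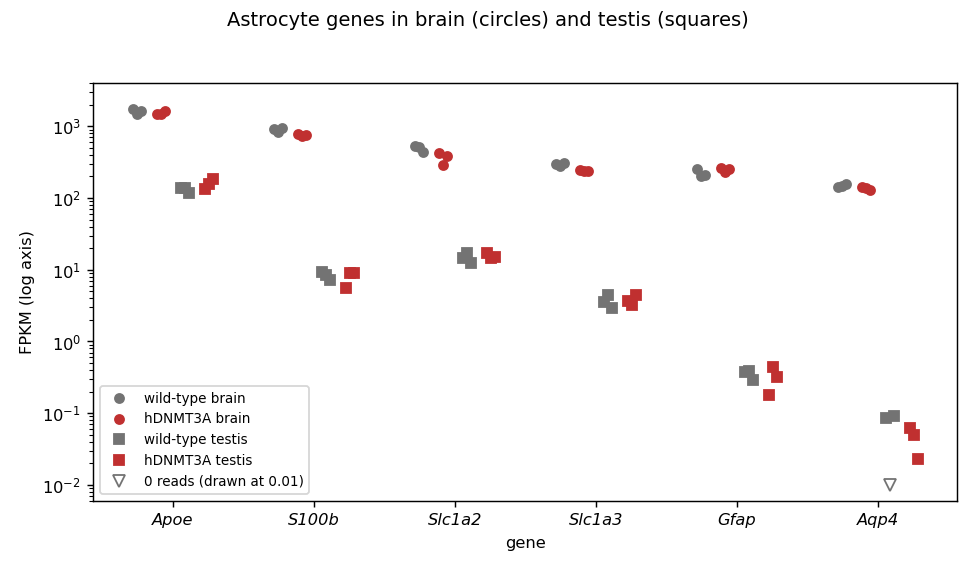
FPKM of the 6 genes on a log axis, with 1 point per library: circles for brain, squares for testis, grey for wild type and red for hDNMT3A; the open triangle marks the 1 library with 0 reads, drawn at 0.01. Brain values of all genes lie between 129 and 1762 FPKM, while testis values run from 119 to 184 FPKM for Apoe down to under 0.1 FPKM for Aqp4.

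The testis values were set against those of other genes restricted to brain. For 62 such genes (100 FPKM or more on average in brain, with a testis median no higher than 0.5 FPKM and the 6 genes left out), the summed level was 0.0623% to 0.0932% of that in brain in each testis library, and single genes ran from 0% to 0.414% with a median of 0.0604%. Aqp4 in testis stood at 0.0365% of its brain level and Gfap at 0.142%, both within the range of those genes. S100b (0.971%), Slc1a3 (1.38%), Slc1a2 (3.52%) and Apoe (9.17%) stood above each of the 62. The class was built on a low testis level, so only genes below its limit could enter it. The part that RNA carried over from brain has in the testis values was not tested.

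In testis, none of the 4 genes that reached the mean of 1 FPKM needed for the test was called between genotypes (limma, 14572 genes), where 0.576% of all genes were called. At an unadjusted limma p under 0.05 stood 0 of the 4, against 11.1% of all genes, and voom on the recovered reads called 0. Apoe passed that unadjusted threshold, higher in hDNMT3A, in 3 alternatives: voom on the recovered reads, all 12 libraries in 1 limma fit, and limma without hDNMT3A replicate 1, where its log2 difference was 0.37. No gene of the 6 had groups apart in testis, a pattern seen in 7.75% (hDNMT3A lower) and 9.94% (hDNMT3A higher) of genes tested. The log2 difference was 0.25 for Apoe (SE 0.12, 95% interval -0.03 to 0.53, adjusted p = 0.502, and 0.14 without hDNMT3A replicate 3), 0.10 for Slc1a2 (-0.18 to 0.39), 0.05 for Slc1a3 (-0.37 to 0.46) and -0.09 for S100b (-0.55 to 0.37). The 2 genes not tested had 59 reads against 53 (Gfap, wild type and hDNMT3A) and 15 against 11 (Aqp4) over 3 libraries each. Their ratios of hDNMT3A to wild type, 0.893 (95% counting interval 0.604 to 1.32) and 0.729 (0.303 to 1.7), show no difference detectable at this depth.

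A single fit over all 12 libraries asked if the genotype effect was unequal in brain and testis. None of the 6 genes was called (limma, 17482 genes), where 0.458% of genes were called, and voom on the recovered reads also called 0. At an unadjusted limma p under 0.05 stood 1, Slc1a2, on the lower side, against 5.42% of all genes. Leaving out 1 library, that count ran from 0 to 3, and the genes in it were not always the same. The interaction, brain minus testis, was -0.54 for Slc1a2 (SE 0.21, 95% interval -0.99 to -0.08, adjusted p = 0.473), -0.34 for Slc1a3 (-0.75 to 0.06), -0.33 for Apoe (-0.67 to 0.02), -0.16 for S100b (-0.66 to 0.33), -0.11 for Aqp4 (-0.37 to 0.16) and 0.27 for Gfap (-0.12 to 0.65). Aqp4 and Gfap entered this fit through brain alone, and their values rest on a few reads in testis. With voom on the recovered reads their SE was 0.88 and 0.58, against 0.12 and 0.18 in limma. The intervals given for these 2 genes are thus too narrow, and nothing is drawn from them. The size of the interaction also depended on single libraries: without hDNMT3A testis replicate 1 it was -0.38 for S100b and 0.14 for Gfap, without hDNMT3A testis replicate 3 it was -0.05 for S100b and -0.21 for Apoe, and without wild-type testis replicate 2 it was -0.03 for Aqp4. A lower value of the transporters in hDNMT3A brain was therefore not shown to be particular to brain.

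**Figure D4:**
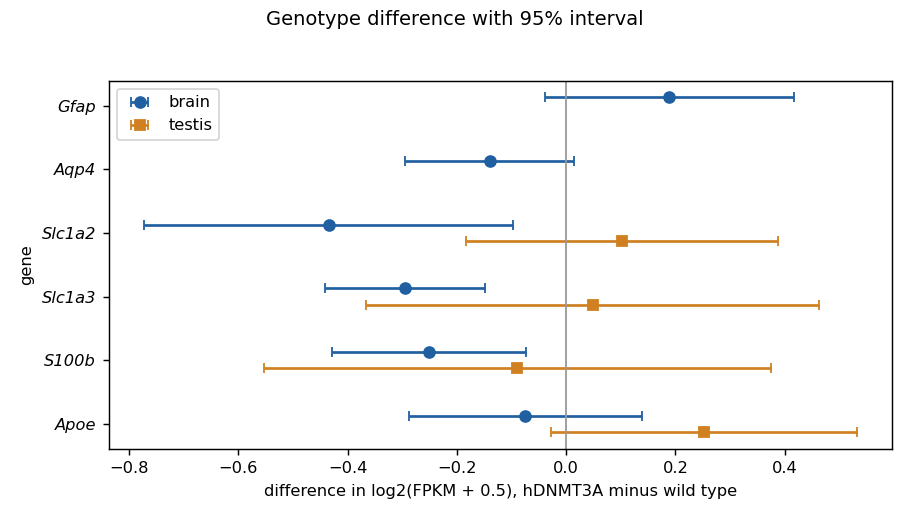
Difference in log2(FPKM + 0.5) between hDNMT3A and wild type (horizontal axis) for each gene in brain (circles) and testis (squares), with 95% intervals from limma; Gfap and Aqp4 were too low to test in testis. The brain intervals of Slc1a2, Slc1a3 and S100b lie below 0, without adjustment for the number of genes, and the others include 0.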

How the data were processed

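The authors deposited 1 table of FPKM values (fragments scaled to gene length and library size) for 25908 Ensembl identifiers in 12 libraries. RNA was extracted with Trizol and libraries were made with the Illumina TruSeq RNA kit, per the labels' protocols. The submitters' processing notes name Bowtie 1.0.1 and Rnor_6.0. The sources used here do not give the annotation, the counter or its handling of strand, so overlapping genes could share reads.

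The 6 identifiers carry the symbols with which the set was defined. RefSeq (GRCr8) held all 6 symbols, but its table paired 0 of the 25908 identifiers with a symbol. The planned lists of other astrocyte genes, partners of the 6 genes and markers of other cell types were therefore not analysed here. Members and lists were chosen with earlier results of these data known. The 2 most similar genes were named by a fixed rule: a brain mean of at least 10 FPKM and the highest correlation with the members' mean z-score.

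Whole reads were recovered from the FPKM steps. With 1 length per gene, all values came out whole within 0.002 reads in 100% of genes (lengths up to 60000 bp), and in 0% of 1785 genes whose values were moved by about 1%. Between any pair of libraries in a group the chi-square per gene was 4.79 to 14.2, and all were kept as separate samples. Groups were compared by limma 3.58.1 under R 4.3.3 on log2(FPKM + 0.5), letting the variance follow intensity. Genes entered if they averaged 1 FPKM or more in the libraries fitted (for the interaction, in either tissue). Tests were two-sided, with Benjamini-Hochberg adjustment over all genes tested. Because of the pseudocount, changes of low genes come out too small. On simulated reads the brain comparison found 65 of 100 genes changed 2-fold and 92 of 100 changed 4-fold, with 11 false calls. Smaller changes were not simulated. Counting intervals are exact at 95%, and PCR copies of a molecule cannot be told from further molecules here. Summaries and plots were made in Python 3.11.15 (numpy 2.4.6, pandas 2.3.3, scipy 1.17.1, matplotlib 3.10.9). Alternatives changed the pseudocount, filter, scaling, trend, test (voom on recovered reads), libraries fitted and replicate block, and left out each library in turn.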

Additional observations from a re-analysis of the deposited data

How the results depend on the processing

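The count of members called kept its value in each alternative that was run. It was 0 of 6 genes for genotype in brain, 0 of those tested for genotype in testis and 0 of 6 for the interaction. For tissue it was each of the 6 in each genotype. Gfap and Aqp4 entered the interaction and tissue fits through brain alone. The count over all genes moved more, from 16 in brain to 7 with a pseudocount of 0.1 FPKM, 57 with all 12 libraries in 1 fit and 0 with the replicate block, and it lay between 2 and 8 with 1 library left out. In testis it went from 84 to 221 with voom, 247 with all 12 libraries in 1 fit and 39 with the replicate block (20 to 80 with 1 library left out), and for the interaction from 80 to 3 with the replicate block (30 to 89 with 1 library left out). In brain the 6 genes kept their direction in 14 of 14 alternatives each. Leaving out 1 library, the log2 difference ran from -0.55 to -0.28 for Slc1a2, -0.33 to -0.27 for Slc1a3, -0.30 to -0.22 for S100b, -0.17 to -0.10 for Aqp4, -0.14 to -0.01 for Apoe and 0.13 to 0.28 for Gfap. The lowest adjusted p over these alternatives was 0.215, for Slc1a3.

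In testis some directions turned when 1 library was left out: Slc1a2 was -0.0081 and Slc1a3 -0.071 without wild-type replicate 3, Slc1a3 was -0.068 without hDNMT3A replicate 3, and S100b was 0.13 without hDNMT3A replicate 1. The ranges were 0.14 to 0.37 for Apoe, -0.0081 to 0.21 for Slc1a2, -0.071 to 0.18 for Slc1a3 and -0.20 to 0.13 for S100b. For the interaction, leaving out 1 library gave -0.65 to -0.38 for Slc1a2, -0.48 to -0.22 for Slc1a3, -0.44 to -0.21 for Apoe, -0.38 to -0.05 for S100b, -0.15 to -0.03 for Aqp4 and 0.14 to 0.38 for Gfap, with no change of direction. With voom the interaction of Aqp4 was -0.42 and that of Gfap 0.42. The testis differences lay within the spread of the libraries, and the cause was not tested. The brain levels rescaled so that all libraries have the same sum (TPM) were 508 for Gfap, 3404 for Apoe, 306 for Aqp4, 924 for Slc1a2, 575 for Slc1a3 and 1794 for S100b, a change of unit by construction that left the order within a library as it was.

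Same-numbered samples were checked for pairing by the correlation of their deviations, which was -0.271 to -0.0052 between genotypes in brain and 0.0362 to 0.106 in testis, and -0.00592 to 0.0256 (wild type) and 0.00222 to 0.183 (hDNMT3A) between tissues. Each of the 3 wild-type testis libraries correlated best with its own number in hDNMT3A testis, a pattern from the data and not from the design. The same held for 0 of 3 wild-type brain libraries against hDNMT3A brain. Between tissues it held for 2 of 3 brain libraries in each genotype. The labels do not say if brain and testis libraries of the same number came from 1 animal, and these correlations do not settle it, so the libraries were not treated as paired. With the replicate block, 0 members were called for genotype or interaction. For tissue, Apoe, S100b, Slc1a2 and Slc1a3 were called in each genotype. So were most genes in either direction, 14382 of 16115 in wild type and 14382 of 16102 in hDNMT3A. Gfap and Aqp4 entered the tissue fits through brain alone, and their calls are not counted here. Depth limits Gfap and Aqp4 in testis, where 10 to 24 and 0 to 8 reads were counted per library.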
